A study of Mus musculus with 10 samples.

Results

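Lrmda, Tcf24 and Lpl are genes whose expression differed between Ezh2-null and wild-type (WT) mouse leukaemia, and they were followed here across all 3 genotypes of the series. The members were every probe set carrying one of these symbols or an older synonym: 3 for Lrmda, 1 for Tcf24 (annotated on the array as Gm10567) and 2 for Lpl, that is 6 of 37762 probe sets with 1 symbol. Their Ezh2-null and WT values had led to their choice, so that contrast is described without a test. The samples were primary MLL-AF9 acute myeloid leukaemias of the C57B/6 background, in which a retrovirus carrying the MLL-AF9 fusion and GFP had transformed the cells. Cells of replated leukaemic colonies had been injected into sublethally irradiated mice, and pIpC was given to the recipients of every group to switch on Cre, with YFP marking the cells in which Cre had acted. Live bone marrow cells positive for GFP and YFP were sorted, and RNA from 3 WT, 4 Ezh2-null and 3 Eed-null samples, called biological replicates by the submitters, was amplified and hybridised to expression arrays. The labels give neither the age of the mice nor the Cre line, nor how many colonies or donors stand behind an array, so p-values measure only the spread between these samples.

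Polycomb repressive complex PRC2 places methyl groups on lysine 27 of histone H3 and keeps many developmental genes silent. Ezh2 is one of its alternative catalytic subunits, while Eed is a core subunit that the complex needs with either of them. Lrmda encodes a leucine-rich repeat protein that works with the small GTPases Rab32 and Rab38 in the biogenesis of melanosomes, and in humans its loss causes a form of oculocutaneous albinism. Tcf24 is a little-studied member of the basic helix-loop-helix (bHLH) family of transcription factors, which bind DNA as dimers. Lpl, lipoprotein lipase, is secreted and splits the triglycerides of circulating lipoproteins, and macrophages and adipocytes are among the cells that make it.

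Array medians lay between 7.22 and 7.29 on the log2 scale. The pan-leukocyte gene Ptprc had group means of 11.79 (WT), 12.03 (Ezh2-null) and 11.83 (Eed-null). Itgam, the other haematopoietic marker, had means of 8.99, 9.57 and 9.31, with Ezh2-null replicate 1 at 11.15. The other Ezh2-null arrays read 8.90 to 9.20 for Itgam. Over the arrays, 16 granulocyte markers averaged 11.06 to 12.54. WT replicate 3 was the array at 11.06, and the others lay at 12.05 or above. The brighter Eed probe set fell by 1.89 (SE 0.20) where Eed was deleted (limma, adjusted p = 0.0100), and passing means here an adjusted p under 0.05 over all probe sets. This call ended with only WT and Eed-null in the fit (limma, adjusted p = 0.105), and with the mean of both Eed probe sets the difference was -0.81 (limma, adjusted p = 0.0913). The Ezh2 probe set differed by -0.84 (SE 0.25) in Ezh2-null and did not pass (limma, adjusted p = 1.00). WT replicate 2 read 9.35 there, within the Ezh2-null range of 8.91 to 9.36. Where these probe sets lie relative to the deleted exons is not known here. In Tcf24, in Lrmda and in the brighter Lpl probe set, WT replicate 2 lay with the other WT arrays. On the second Lpl probe set it read 7.60, within the Ezh2-null range of 6.90 to 7.93.

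Lrmda spans 1036590 bases of chromosome 14, from 22019504 to 23056093 (GRCm38.p6). RefSeq's promoter table held an entry for 1 of the 3 members, Lrmda. The 250 bases before its listed start site are printed here because PRC2 is best known at promoters rich in CpG dinucleotides, and the capitals mark each CpG (plus strand, chr14:22019462-22019711). The gene span that RefSeq annotates for Lrmda begins inside this window.
Lrmda promoter: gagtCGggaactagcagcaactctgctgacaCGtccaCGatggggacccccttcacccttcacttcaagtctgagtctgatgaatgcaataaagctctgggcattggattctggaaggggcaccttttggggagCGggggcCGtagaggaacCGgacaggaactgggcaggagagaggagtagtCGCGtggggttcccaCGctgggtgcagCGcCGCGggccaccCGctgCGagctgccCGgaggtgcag
The window held 15 CpG dinucleotides and 62.4% G or C. Over all 32851 promoters of the table, the medians were 6 CpG and 52.4% G or C, and 27.3% of them had at least 15 CpG. The E-box CANNTG, the motif that bHLH dimers bind, which reads alike on both strands, was not found in these letters and was found in 66.2% of all promoters over the same length.

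Lrmda was higher in Ezh2-null leukaemia on every one of its probe sets, and in Eed-null leukaemia 2 of its 3 probe sets overlapped WT. Probe set 1430886_at read 4.02, 3.63 and 3.42 in WT replicates 1 to 3, and 6.76, 6.80, 5.99 and 6.36 in Ezh2-null replicates 1 to 4. In Eed-null replicates 1 to 3 it read 3.52, 3.39 and 3.74. The Eed-null values lay among or just below those of WT, and both groups lay far below every Ezh2-null array. The group means of 1430886_at were 3.69 ± 0.30 (SD, n = 3) in WT, 6.48 ± 0.38 (SD, n = 4) in Ezh2-null and 3.55 ± 0.18 (SD, n = 3) in Eed-null. Ezh2-null was thus 6.90-fold above WT, a log2 difference of 2.79 and the 10th largest rise of all probe sets. That fold rests on a dim baseline: in WT and Eed-null this probe set was among the lowest 5.63% of probe sets of each array, against the 27.6th to 41.7th percentile in Ezh2-null.

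The brighter probe set 1430887_s_at showed the same order with a smaller step. It read 6.59, 6.11 and 6.03 on the WT arrays, 7.52, 8.34, 7.79 and 7.62 on the Ezh2-null arrays, and 6.27, 5.83 and 6.16 on the Eed-null arrays. Every Ezh2-null array lay above all others, while WT and Eed-null overlapped. Its means were 6.24 ± 0.30 (SD, n = 3), 7.82 ± 0.37 (SD, n = 4) and 6.09 ± 0.23 (SD, n = 3), so that Ezh2-null was 2.97-fold above WT. The suffix of its name marks a probe set whose probes can match more than 1 transcript. The third probe set, 1431988_at, read 6.26, 6.06 and 6.20 on the WT arrays, 7.12, 6.77, 7.27 and 7.06 on the Ezh2-null arrays, and 6.64, 6.49 and 6.52 on the Eed-null arrays. Here the groups fell into 3 steps without overlap, WT lowest, Eed-null between and Ezh2-null highest, with Ezh2-null 1.84-fold above WT.

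**Figure D1:**
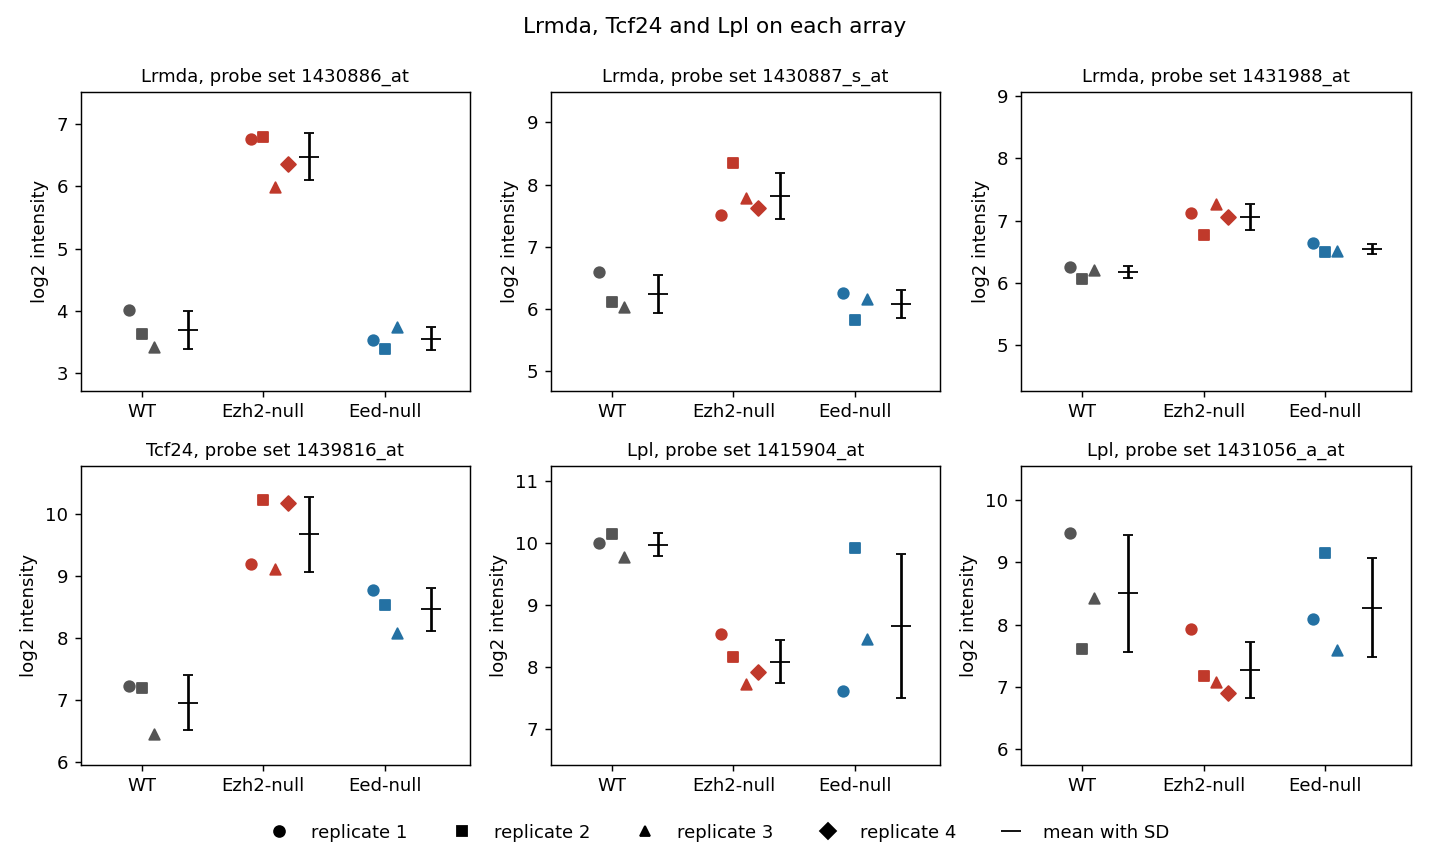
Log2 intensity of each of the 6 probe sets (one panel each, all panels spanning the same number of log2 units) on every array, by genotype, with marker shape giving the replicate number and the bar the group mean with its SD. The Lrmda and Tcf24 panels show Ezh2-null above WT on every array, the first Lrmda panel with Eed-null near 3.55, and the Lpl panels show the wide spread of Eed-null.

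The test that the choice of members allows is Eed-null against WT, since the Eed-null arrays had no part in it, although the WT arrays did. Lrmda did not pass in that comparison on any probe set. The log2 difference was -0.14 (95% interval -0.63 to 0.36) for 1430886_at (limma, adjusted p = 0.865) and -0.16 (95% interval -0.68 to 0.37) for 1430887_s_at (limma, adjusted p = 0.854). For 1431988_at the difference was 0.37 (95% interval 0.04 to 0.70), which did not pass (limma, adjusted p = 0.417). Of all 37762 probe sets, 0.114% passed in Eed-null against WT.

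Tcf24 lies on chromosome 1, from 9960163 to 9967981 (GRCm38.p6), and its single probe set 1439816_at was higher in both null groups. It read 7.23, 7.19 and 6.45 on the WT arrays, 9.18, 10.21, 9.11 and 10.17 on the Ezh2-null arrays, and 8.76, 8.54 and 8.08 on the Eed-null arrays. All values of Eed-null lay above those of WT and below those of Ezh2-null. The means were 6.96 ± 0.44 (SD, n = 3), 9.67 ± 0.61 (SD, n = 4) and 8.46 ± 0.35 (SD, n = 3), which placed Ezh2-null 6.55-fold and Eed-null 2.83-fold above WT. Within Ezh2-null replicates 2 and 4 lay close together above replicates 1 and 3. WT replicate 3, the array low in granulocyte markers, was also the lowest WT array for Tcf24, and without it the differences were 2.46 in Ezh2-null and 1.25 in Eed-null.

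The Tcf24 difference of Eed-null from WT was 1.50 (SE 0.36, 95% interval 0.70 to 2.30), and it ranked 172nd among all rises. It did not pass after adjustment over all probe sets (limma, adjusted p = 0.207), with adjusted p-values of 0.166 to 0.413 over the alternatives. Higher without overlap in Eed-null against WT were 2 of the 6 probe sets, Tcf24 1439816_at and Lrmda 1431988_at, against 7.29% of all probe sets. The WT values of this count also led to the choice of both genes, which favours it, so it is a description. Tcf24 in Eed-null was 2.31-fold below Ezh2-null, which is a description, since the Ezh2-null values led to the choice of the gene. Without overlap, 4 of the 6 probe sets, all those of Lrmda and Tcf24, were lower in Eed-null than in Ezh2-null, as were 4.28% of all probe sets. That count is a description too, since the choice of both genes for their Ezh2-null values favours it.

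Lpl, on chromosome 8 from 68880555 to 68906932 (GRCm38.p6), differed in the opposite direction to Lrmda and Tcf24 and was lower in Ezh2-null. Its brighter probe set 1415904_at read 10.001, 10.14 and 9.77 on the WT arrays, 8.54, 8.16, 7.73 and 7.93 on the Ezh2-null arrays, and 7.62, 9.91 and 8.46 on the Eed-null arrays. The WT arrays lay close together and above all of Ezh2-null, whereas Eed-null replicate 2 read within the WT range and replicate 1 below all other arrays. The means were 9.97 ± 0.19 (SD, n = 3), 8.09 ± 0.35 (SD, n = 4) and 8.66 ± 1.16 (SD, n = 3). Ezh2-null was 3.68-fold below WT, the 7th largest fall of all probe sets.

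The second Lpl probe set, 1431056_a_at, separated the groups less. It read 9.47, 7.60 and 8.42 on the WT arrays, 7.93, 7.17, 7.08 and 6.90 on the Ezh2-null arrays, and 8.08, 9.15 and 7.58 on the Eed-null arrays. The lowest WT array lay below the highest Ezh2-null array, so that these groups overlapped. Its mean was 2.35-fold lower in Ezh2-null, at 7.27 ± 0.45 (SD, n = 4) against 8.50 ± 0.94 (SD, n = 3) in WT. The log2 difference of -1.23 was -0.74 without WT replicate 1 and -1.68 without WT replicate 2. WT replicate 2, the highest WT array on the first Lpl probe set, was the lowest on the second. Of the 6 members, 5 separated Ezh2-null from WT without overlap, where 5.29% of all probe sets did; the members were chosen from this contrast.

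In Eed-null against WT, Lpl differed by -1.31 (SE 0.47, 95% interval -2.35 to -0.27) on 1415904_at, which did not pass (limma, adjusted p = 0.369). It was -1.93 without Eed-null replicate 2 (limma, adjusted p = 0.0571) and -0.79 without Eed-null replicate 1 (limma, adjusted p = 0.580). On 1431056_a_at the difference was -0.23 (95% interval -1.34 to 0.88), which did not pass (limma, adjusted p = 0.905) and was 0.26 with WT replicate 1 left out and 0.11 with Eed-null replicate 3 left out. Eed-null lay 0.57 above Ezh2-null on 1415904_at, but -0.05 from it without Eed-null replicate 2, and 1.001 above it on 1431056_a_at, or 0.56 without that array, with overlapping values on both.

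**Figure D2:**
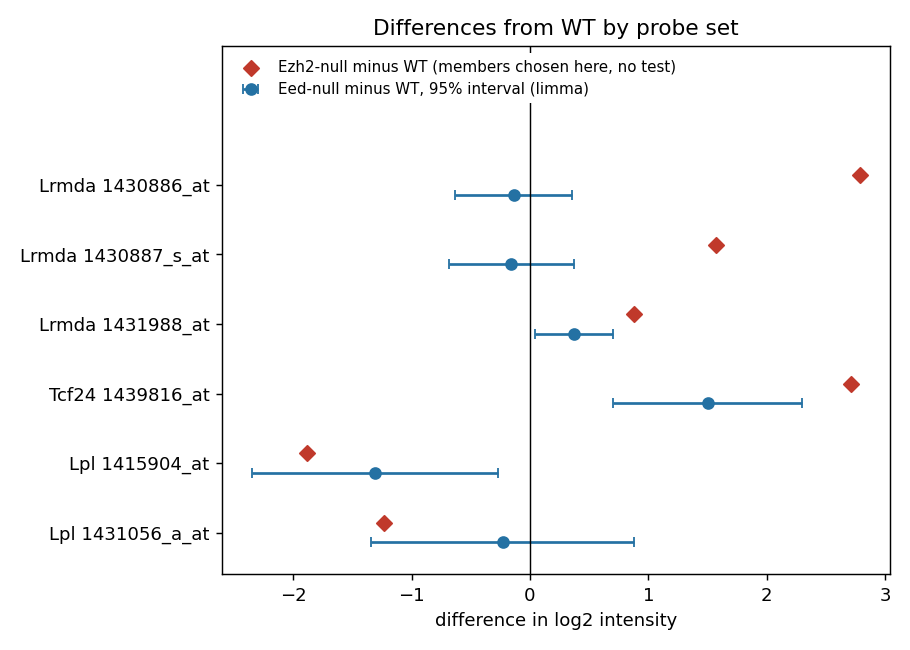
Difference in log2 intensity from WT for each probe set, as red diamonds for Ezh2-null (the contrast from which the members were chosen, drawn without an interval) and blue circles for Eed-null with 95% intervals from limma. The Eed-null intervals of the first 2 Lrmda probe sets and of Lpl 1431056_a_at include 0, and Tcf24 lies at 2.71 and 1.50.

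Because macrophages make Lpl, 18 monocyte and macrophage markers were read beside it. Their mean level ranged from 7.29 to 7.96 over the WT arrays, from 7.23 to 7.56 over Ezh2-null and from 7.03 to 7.34 over Eed-null. Among the Eed-null arrays the mean was highest in replicate 2, the array with the highest Lpl, at 7.34 against 7.03 and 7.05 in replicates 1 and 3. WT replicate 3, the array with the lowest mean of that group, 7.29, read 9.77 for Lpl 1415904_at, above all Ezh2-null arrays. Of the 18 markers, 0 passed in either comparison with WT (limma, with 0 at an unadjusted p under 0.05 in Ezh2-null and 3 in Eed-null). Their median differences were -0.11 in Ezh2-null, with 5 of 18 positive, and -0.14 in Eed-null, with 7 of 18 positive, and the 4 named next are those with the smallest p in either comparison. The chemokine receptor gene Ccr2 differed by -1.33 (SE 0.70) in Ezh2-null and -3.03 (SE 0.74) in Eed-null, and the macrophage glycoprotein gene Cd68 by -0.54 (SE 0.29) and -1.24 (SE 0.31). The fractalkine receptor gene Cx3cr1 differed by -0.24 (SE 0.44) and -1.69 (SE 0.47), and Axl, a receptor for apoptotic cells, by -0.70 (SE 0.40) and -0.61 (SE 0.43). Besides these 4, Cd163 was lower too, at -0.68 (SE 0.79) and -1.86 (SE 0.85). Adgre1 differed by -0.39 (SE 0.43) and -0.73 (SE 0.46), with every Eed-null array below WT. The adhesion gene Vcam1 differed by 0.45 (SE 0.31) in Ezh2-null and -0.27 (SE 0.33) in Eed-null. Some differed little, such as the macrophage receptor gene Mertk at 0.06 (SE 0.15) and 0.22 (SE 0.16). In bulk RNA, fewer cells of a type and less RNA per cell cannot be told apart, and the part of these markers in the Lpl values was not tested.

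Adipocytes make Lpl too, and 16 adipocyte, stromal and endothelial markers averaged 6.63 to 6.89 over the WT arrays, 6.61 to 6.75 over Ezh2-null and 6.67 to 6.81 over Eed-null. Adipoq, the adipocyte hormone adiponectin, read between 4.66 and 5.14 on all arrays, under the array medians, and the lipid droplet gene Cidec between 5.65 and 6.11. Pecam1, an adhesion molecule of endothelium that leukocytes also carry, differed by -0.69 (SE 0.20) in Ezh2-null and -0.16 (SE 0.21) in Eed-null. The endothelial gene Emcn differed by -0.29 (SE 0.14) and -0.17 (SE 0.15), the adipocyte hormone gene Lep by -0.17 (SE 0.10) and -0.19 (SE 0.11), the leptin receptor gene Lepr by 0.07 (SE 0.21) and 0.34 (SE 0.22), and Retn, the hormone resistin, by 0.17 (SE 0.15) and 0.22 (SE 0.16). Not all of the list was dim, since Retn read 8.21 to 8.57 over all arrays and Pdgfrb 8.32 to 9.34, above the array medians. Of these 16 markers, 0 passed in either comparison (limma, with 1 and 0 at an unadjusted p under 0.05). The granulocyte markers had a median difference of 0.57 in Ezh2-null and 0.39 in Eed-null, against -0.02 and 0.03 over all genes, with 15 and 13 of 16 positive. Without WT replicate 3 these medians were 0.12 and -0.0002, an alternative chosen after the values were seen. Of 16, 0 passed (limma, with 2 and 1 at an unadjusted p under 0.05). Those with the smallest p, not the largest differences, included the neutrophil receptor gene Trem1 at 0.66 (SE 0.26) and 0.58 (SE 0.27). The rest of them were Olfm4 at 0.85 (SE 0.34) and 0.73 (SE 0.36), Ngp at 0.57 (SE 0.27) and 0.52 (SE 0.29), and the gelatinase gene Mmp9 at 0.65 (SE 0.52) and 1.30 (SE 0.56). The granule protease gene Ctsg differed by -0.54 (SE 0.43) and -0.47 (SE 0.46), and Elane, for neutrophil elastase, by 0.12 (SE 0.34) and -0.61 (SE 0.36).

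Of the genes of the pathways around the members and the cell type markers, none passed. Over all 8 lists, 200 of 205 listed genes were measured, and 0 passed in Ezh2-null against WT (limma, with 7 at an unadjusted p under 0.05) or in Eed-null against WT (limma, with 19 at an unadjusted p under 0.05). Counting 1 probe set per gene, with p-values adjusted over all 37762 probe sets, 0.0243% of 20564 genes passed in the first comparison and 0.117% in the second, so counts of 0 in lists of this size are near the background. At an unadjusted p under 0.05 stood 3.57% and 9.94% of all genes, and the listed genes were near these shares too.

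For Lrmda, the list held 31 measured genes of melanosomes and lysosome-related organelles. The median difference was -0.0047 in Ezh2-null, with 15 of 31 positive, and -0.09 in Eed-null, with 11 of 31 positive. Rab32, a partner GTPase of Lrmda, read 9.85, 9.39 and 9.24 on the WT arrays, 10.17, 9.62, 9.82 and 9.90 on the Ezh2-null arrays, and 9.07, 9.60 and 9.35 on the Eed-null arrays. The WT values of Rab32 overlapped those of both null groups, and it differed by 0.38 (SE 0.21) in Ezh2-null and -0.15 (SE 0.23) in Eed-null. Rab38, the other partner, read 5.93, 7.76 and 7.46 in Eed-null against 5.81 to 6.34 in WT and 5.71 to 6.26 in Ezh2-null, so that Eed-null replicates 2 and 3 stood above all other arrays. It differed by -0.17 (SE 0.37) and 0.95 (SE 0.40). Hps1 and Hps4, which form the exchange factor for these GTPases, differed in Ezh2-null by -0.59 (SE 0.35) and 0.56 (SE 0.33), and in Eed-null by -0.24 (SE 0.37) and -0.04 (SE 0.35). Rab27a, a GTPase of granule transport, differed by 0.16 (SE 0.12) and 0.26 (SE 0.13), and its melanosome adaptor gene Mlph by 0.05 (SE 0.14) and 0.35 (SE 0.15). In either comparison, all of them missed the threshold (limma, adjusted p of 0.431 or above).

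For Tcf24, the list held 47 genes for E proteins, which are the common dimer partners of bHLH factors, for Id proteins, which block such dimers, and for tissue-restricted bHLH factors. Their median difference was -0.03 in Ezh2-null, with 18 of 47 positive, and 0.04 in Eed-null, with 30 of 47 positive. Id2, a dimer blocker, read 9.54, 9.78 and 7.41 on the WT arrays, 10.22, 9.90, 9.95 and 10.39 on the Ezh2-null arrays, and 11.09, 9.92 and 10.83 on the Eed-null arrays. Every null array lay above every WT array for Id2, with WT replicate 3 far below the other WT arrays. The differences of Id2 were 1.21 (SE 0.51) and 1.70 (SE 0.54), which did not pass (limma, adjusted p = 1.00 and 0.317). The E protein gene Tcf12 differed by 0.27 (SE 0.22) and 0.67 (SE 0.24), Id1 by 0.32 (SE 0.18) and -0.19 (SE 0.19), Atoh8 by 0.07 (SE 0.14) and 0.41 (SE 0.15), and Nhlh1 by -0.23 (SE 0.12) and 0.04 (SE 0.13), none of which passed.

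For Lpl, 22 genes that fold, carry, activate or inhibit the enzyme had median differences of -0.02 in Ezh2-null and 0.05 in Eed-null. Apoc2, its activator on lipoproteins, read 9.87, 10.72 and 10.08 on the WT arrays, 10.13, 9.62, 9.49 and 10.41 on the Ezh2-null arrays, and 9.46, 9.43 and 9.65 on the Eed-null arrays. Eed-null lay below WT on every array for Apoc2, at -0.71 (SE 0.29), and Ezh2-null overlapped WT, at -0.31 (SE 0.27). The proprotein convertase gene Furin differed by -0.06 (SE 0.19) in Ezh2-null and 0.62 (SE 0.20) in Eed-null. The lipase gene Lipg differed by 0.69 (SE 0.48) and 1.07 (SE 0.51), and the apolipoprotein gene Apoe by -0.34 (SE 0.16) and -0.19 (SE 0.17). None passed (limma, adjusted p of 0.326 or above).

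Of 29 genes of lipid uptake and storage, 15 were positive in Ezh2-null, with a median of 0.06, and 14 in Eed-null, with a median of -0.02. Soat1, which esterifies cholesterol for storage, read 10.58, 10.80 and 10.62 on the WT arrays, 9.74, 10.09, 10.01 and 10.27 on the Ezh2-null arrays, and 9.99, 9.49 and 9.43 on the Eed-null arrays. All null arrays lay below all WT arrays for Soat1, as the Ezh2-null arrays did on the brighter Lpl probe set but not on the other. Soat1 differed by -0.63 (SE 0.19) and -1.03 (SE 0.20), with the smallest adjusted p of all listed genes in Eed-null, which still did not pass (limma, adjusted p = 0.127). The lipoprotein receptor gene Scarb1 differed by -0.60 (SE 0.29) and -0.87 (SE 0.30), and G0s2, an inhibitor of fat breakdown, by 0.69 (SE 0.27) and 0.43 (SE 0.29), and neither passed.

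The nuclear receptors LXR and PPAR are known activators of Lpl in macrophages and fat, and 21 genes for them and their targets had median differences of -0.02 and 0.08. Abca1, a cholesterol exporter and LXR target, read 5.73, 8.32 and 8.42 in Eed-null against 4.44 to 5.87 in WT and 5.20 to 6.23 in Ezh2-null. Eed-null replicates 2 and 3 thus stood above all other arrays for Abca1, at a difference of 2.16 (SE 0.65), short of the threshold (limma, adjusted p = 0.296). The desaturase genes Scd1 and Scd2 differed by -0.24 (SE 0.17) and -0.51 (SE 0.31) in Ezh2-null and by -0.0008 (SE 0.18) and 0.48 (SE 0.33) in Eed-null. Pparg differed by -0.24 (SE 0.17) and -0.01 (SE 0.18), Srebf1 by -0.15 (SE 0.20) and 0.38 (SE 0.21), and Lpcat3 by 0.24 (SE 0.35) and 0.79 (SE 0.38), and none passed.

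The genes beside the members on the chromosome were read next. Of the 18 neighbours, 3 on each side of each member among genes with a probe set, 0 passed in either comparison (limma, with 1 at an unadjusted p under 0.05 in Ezh2-null and 2 in Eed-null). Their median difference was -0.12 in Ezh2-null and -0.0012 in Eed-null, with ranges of -0.83 to 0.77 and -0.64 to 0.64. Around Lrmda, Comtd1, Zfp503, A330001L22Rik, Kcnma1, 5430425E15Rik and Dlg5 lay between -0.21 and 0.16 in Ezh2-null. Around Tcf24, 1700034P13Rik, Sgk3, Snhg6 and Cops5 lay between -0.17 and 0.15 there, while Ppp1r42 differed by 0.77 (SE 0.49) and Cspp1 by 0.71 (SE 0.34). Ppp1r42, which is next to Tcf24, read 7.71, 7.63 and 5.53 in WT and 7.53 to 7.87 in Ezh2-null, with WT replicate 3 far below the other WT arrays. Around Lpl, Sh2d4a, Csgalnact1, Ints10 and Gm10033 lay between -0.18 and 0.25 in Ezh2-null. The amine transporter gene Slc18a1 differed by -0.83 (SE 0.65), with WT replicate 3 at 8.50 and the other WT arrays at 5.63 and 5.73. Atp6v1b2, a subunit of the proton pump that acidifies lysosomes, differed by -0.40 (SE 0.16) in Ezh2-null and -0.64 (SE 0.17) in Eed-null (limma, adjusted p = 0.250 in the latter).

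**Figure D3:**
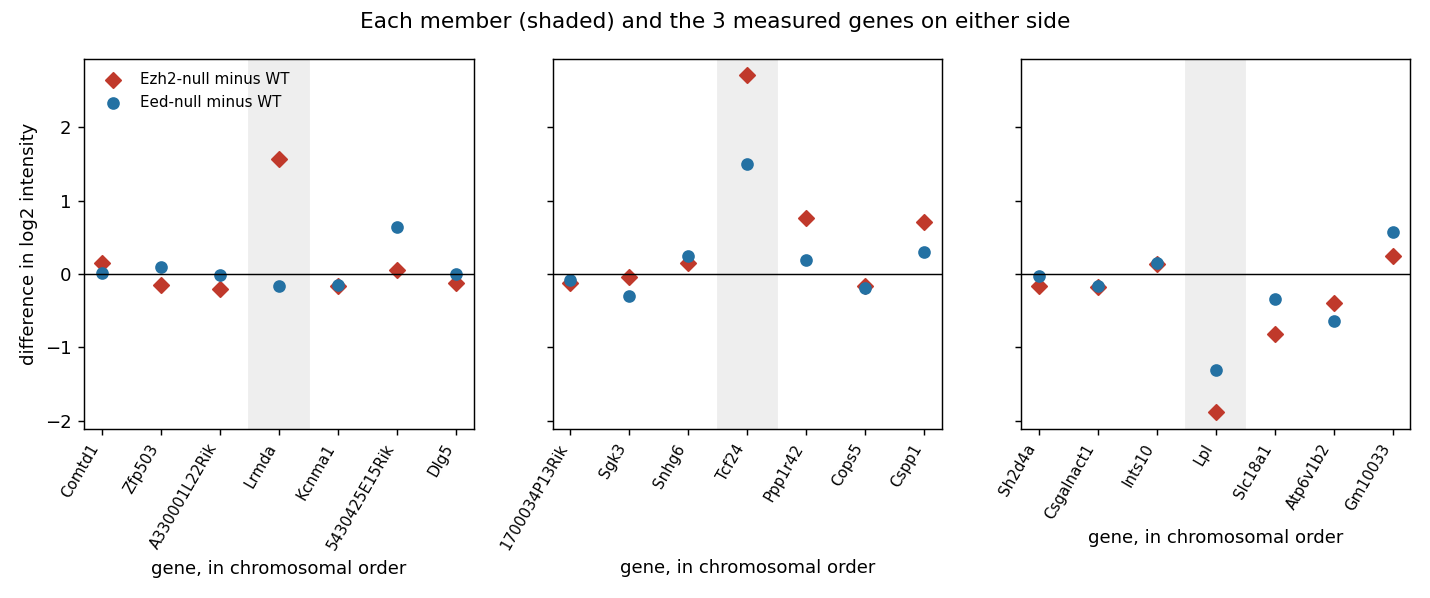
Difference in log2 intensity from WT for each member (shaded, probe set with the highest mean) and the 3 measured genes on either side in chromosomal order, with red diamonds for Ezh2-null and blue circles for Eed-null. The neighbours lie between -0.83 and 0.77. The members stand outside them in Ezh2-null, the contrast from which the members were chosen.

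The genes most like each member were taken by Pearson's r over the 10 arrays against its probe set with the highest mean. These coefficients are a description over arrays that share the genotype steps, and the genes were picked from 20564 for being highest. Closest to Lrmda was Azgp1, a secreted glycoprotein gene, at r of 0.974. It read 7.40, 6.58 and 6.98 on the WT arrays, 7.83, 8.83, 8.70 and 8.38 on the Ezh2-null arrays, and 6.83, 6.58 and 6.83 on the Eed-null arrays. Like Lrmda 1430887_s_at, against which it was picked, Azgp1 was high in Ezh2-null alone of the 3 groups on every array. The Ezh2-null difference of Azgp1 from WT of 1.45 (SE 0.26) did not pass (limma, adjusted p = 0.387). E130112B07Rik, D530031A16Rik, Gm527 and Ywhaz followed at r of 0.933, 0.907, 0.892 and 0.886.

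Closest to Tcf24 were Ptprr, a receptor tyrosine phosphatase gene, at r of 0.936, and Bank1, a B cell adaptor gene, at 0.923. Ptprr read 6.45, 7.17 and 6.13 on the WT arrays, 7.67, 7.98, 7.68 and 8.51 on the Ezh2-null arrays, and 7.39, 7.22 and 7.27 on the Eed-null arrays, the same order of groups as Tcf24. They were followed by 2900035I09Rik at 0.907, Sval1 at 0.873 and Bmi1, a PRC1 subunit, at 0.862. Of these 5, Bmi1 passed in both comparisons with WT, at 1.96 (SE 0.18) in Ezh2-null and 1.55 (SE 0.20) in Eed-null (limma, adjusted p = 0.00840 and 0.0218). The Ezh2-null call of Bmi1 ended without Ezh2-null replicate 4 (limma, adjusted p = 0.0556). The Eed-null call ended with only the groups compared in the fit (limma, adjusted p = 0.204) and without WT replicates 2 or 3, Ezh2-null replicates 3 or 4, or Eed-null replicates 2 or 3 (limma, adjusted p of 0.0511 to 0.0790), at differences of 1.41 to 1.60. Closest to Lpl was Slc9a7, a proton exchanger gene of the Golgi, at r of 0.931. It read 6.01, 6.09 and 5.83 on the WT arrays, 5.54, 5.58, 4.81 and 5.06 on the Ezh2-null arrays, and 4.61, 6.02 and 5.21 on the Eed-null arrays. Replicate 2 was the highest of the Eed-null arrays, as for Lpl 1415904_at, and Slc9a7 was picked for its correlation with that probe set. Necap2, Fancg, Pak4 and Tent5a followed at 0.906, 0.894, 0.893 and 0.890, and none of these 5 passed in either comparison.

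The members were also read in a second deposited table, in which the authors had combined the WT and Ezh2-null arrays with another series and adjusted for batch. All 6 differences kept their sign there. Lrmda 1430886_at differed by 3.53, 1430887_s_at by 1.50 and 1431988_at by 1.00, and Lpl 1415904_at by -2.01 and 1431056_a_at by -1.19. The difference of Tcf24 was the one that the tables gave most unlike. Its WT arrays read 8.36, 8.32 and 8.12 in the adjusted table, 1.31 above the other table on average, and its Ezh2-null arrays 9.63, 10.37, 9.50 and 10.36, so that the difference was 1.70 in place of 2.71. The groups still did not overlap for Tcf24 in either table.

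**Figure D4:**
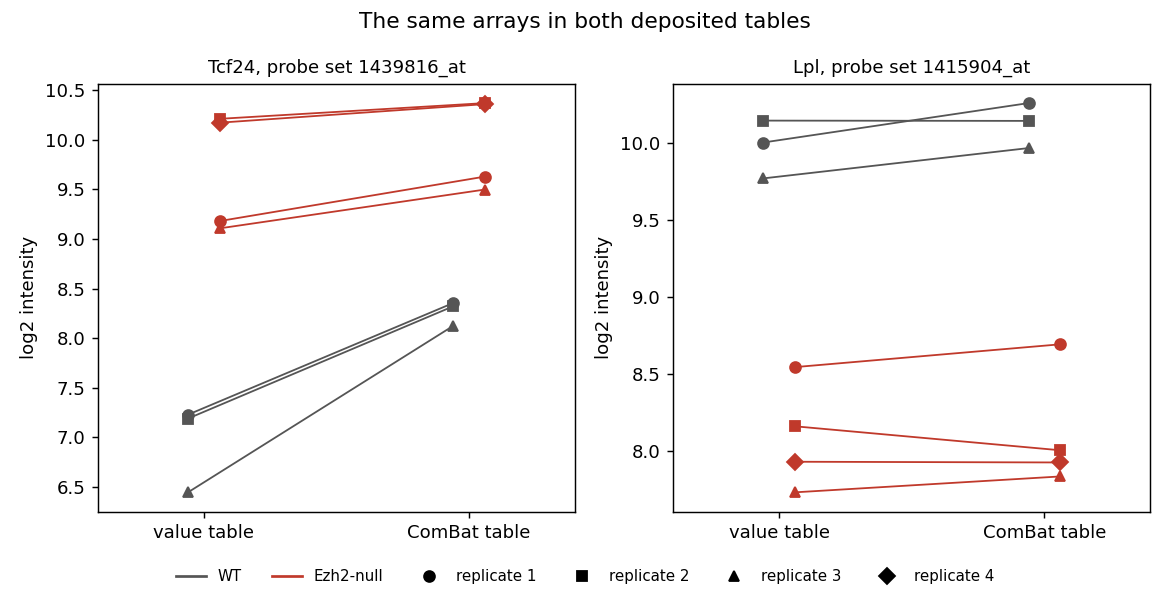
Log2 intensity of Tcf24 and of Lpl 1415904_at on each WT (grey) and Ezh2-null (red) array in the value table and in the ComBat-adjusted table, with a line joining the same array. The WT lines of Tcf24 climb from a mean of 6.96 to 8.27, while the Lpl groups stay apart by 1.88 and 2.01.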

How the data were processed

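RNA of 10 arrays was analysed from probe set values. Per the submitters' processing notes, the authors made the intensity values of the value table with RMA (no version is given in the sources used here). They are on a linear scale, and log2 values were computed here with a floor of 1, which no value reached. A second table of deposited intensity values had been combined with another series and adjusted with ComBat by the authors, per the file header; 16 values below 0 were set to the floor, and its 9 columns of the other series were not used.

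Symbols came from that table and were updated through RefSeq (GRCm38.p6). Control probe sets (64) and those with no symbol (5820), several (1399) or a date in its place (56) were left out, and 37762 were tested. The test was limma 3.58.1 in R 4.3.3 (lmFit by genotype over all 10 arrays, eBayes with trend, two-sided), with Benjamini-Hochberg adjustment over all probe sets and an adjusted p under 0.05 called. It was tested on simulated data. SE is limma's moderated standard error, and groups without overlap are those in which every value of one exceeds every value of the other. For lists, the probe set with the highest mean stood for a gene.

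The members, lists and tests were chosen with earlier results of these data known. Named besides the members were Ezh2, Eed and 3 neighbours on each side. By the same rule came 3 genes of each list with the smallest p in either comparison, and the 5 genes with the highest correlation to each member. Ptprc, Itgam, Adipoq and Cidec were named as defining markers. Vcam1, Mertk, Cd163, Adgre1, Pdgfrb, Ctsg and Elane were named after their values were seen. Some genes that this rule names are not reported here. Alternatives were the ComBat table, a replicate block, only the groups compared, 1 probe set or the mean per gene, a filter on dim probe sets, another floor, quantile normalization, no trend and leaving out each array. Those for Bmi1, Eed and the medians of marker lists were added after seeing the data. The number of arrays limits the precision.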

Additional observations from a re-analysis of the deposited data

Results flagged for a closer look

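Screened were the members, their neighbours, the genes most like them, Ezh2, Eed and the genes of each list with the smallest p. Of these, 2 had 1 Ezh2-null array far from the other 3. For Cd68, replicate 2 read 9.43 against 10.33 to 10.49 in the others, a gap of 0.845 of the group's range. For Cx3cr1, the same array read 7.9997 against 9.18 to 9.37, a gap of 0.861 of the range. Chance flags about 1 in 20 groups of this size. None of the 6 probe sets of Lrmda, Tcf24 and Lpl was flagged in this way. Ptprc, Itgam, Adipoq, Cidec, Vcam1, Mertk, Cd163, Adgre1, Pdgfrb, Ctsg and Elane were not screened. Cidec read 5.65 in Ezh2-null replicate 1 against 5.85 to 5.88 in the other Ezh2-null arrays. Itgam read 11.15 in that array against 8.90 to 9.20 in the other Ezh2-null arrays.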

How the results depend on the processing

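In Eed-null against WT none of the 6 probe sets of the members passed under any alternative. Tcf24 stayed between 1.25 and 1.69 and the brighter Lpl probe set between -1.93 and -0.77, in 18 alternatives each. Lrmda 1430887_s_at turned to 0.026 when the probe sets of a gene were averaged. Leaving out single arrays gave -0.27 to 0.027 for Lrmda 1430886_at, -0.26 to 0.017 for 1430887_s_at and -0.68 to 0.26 for Lpl 1431056_a_at. The first 2 turned without WT replicate 1, and the third also without Eed-null replicate 3. Of the descriptive differences, Lpl 1415904_at in Eed-null minus Ezh2-null ranged from -0.051 to 1.09 and turned without Eed-null replicate 2. Lrmda 1430886_at in Ezh2-null minus WT was 3.53 and Tcf24 1.70 in the ComBat table, and Lrmda 1430886_at in Eed-null minus Ezh2-null was -2.48 with a floor of 16. The filter on dim probe sets kept 4 of the 6 and removed Lrmda 1430886_at and 1431988_at. Over all probe sets, limma called 43 in Eed-null and 10 in Ezh2-null against WT. These counts were 27 and 5 with 1 probe set per gene in the fit and p-values adjusted over those genes alone, 23 and 3 with a floor of 16, and 5 and 0 with the replicate block (1215 at an unadjusted p under 0.05 for the latter). The Eed-null count was 1 with only the groups compared, and the Ezh2-null count 6 without dim probe sets. Leaving out single arrays gave 16 to 53 and 2 to 12. The Eed-null count was 17 and 26 without WT replicates 2 and 3, and 25, 18 and 16 without Ezh2-null replicates 1, 3 and 4. The Ezh2-null count was 4 and 5 without WT replicates 2 and 3, and 5, 3, 4 and 2 without Ezh2-null replicates 1 to 4. Replicate numbers share no stated litter or batch, and the correlations of same-numbered deviations ran from -0.20 to 0.35; the replicate block ended no call of a member, since none had passed, but ended those of Bmi1 in Ezh2-null and Eed-null (limma, adjusted p = 0.135 and 0.110) and of Eed in Eed-null (limma, adjusted p = 0.0562), alternatives that were chosen for these genes after seeing the data. The causes of these shifts were not tested.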
